A study of Mus musculus with 24 samples.

Results

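The 34 genes described here are type I interferon-stimulated genes, a set of genes known to be induced by these antiviral cytokines. Their levels were followed in mouse spleen RNA-seq, in 4 libraries titled CT-26 (spelled CT-26 tumur in the titles) and 4 libraries titled control. All 34 were among the 55414 gene identifiers of the count tables. Of the 34, 17 had enough reads to be tested, among 6408 genes in all. The list runs from transcription factors and RNA sensors to antiviral enzymes, GTPases, ubiquitin-like modifiers and proteins known mainly for being induced. Within this list, 2 tested genes, Rsad2 and Cmpk2, were higher in the libraries titled CT-26, 12 were lower, and 3 did not pass the test.

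Type I interferons are secreted proteins that cells release on sensing viral or misplaced nucleic acid. They bind the receptor made of Ifnar1 and Ifnar2, whose kinases Jak1 and Tyk2 phosphorylate STAT proteins, Stat2 among them. These join Irf9 in the complex called ISGF3, which binds a DNA element, the interferon-stimulated response element (ISRE), before the genes listed here. In spleen, plasmacytoid dendritic cells are known as strong interferon producers, and lymphocytes, myeloid cells and stroma can all respond.

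All 8 libraries came from total RNA of spleen cells (labelled splenocytes) of BALB/c mice, an inbred strain. CT-26 is a mouse colon carcinoma line that arose in BALB/c mice, and the study's treatment was its injection into the right side at 8 weeks of age. The treatment entries go against the titles. They give the 4 libraries titled CT-26 as healthy controls and the 4 titled control as injected with the tumour cells. The sets are therefore named by their titles throughout, and no difference is read as tumour-bearing against healthy or the reverse. The labels do not say that the libraries came from separate animals, so the p-values measure the spread between these libraries, which may be technical. In a bulk library, fewer cells of a type and less RNA per cell cannot be told apart.

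The titled CT-26 libraries held 735298 to 1152550 counts and the titled control libraries 907109 to 1970950. Mitochondrial genes took 37.5% ± 3.91 of the counts in the titled CT-26 set and 54.8% ± 9.15 in the titled control set (SD, n = 4 each). Levels are given as CPM, counts relative to the scaled library totals, and 3 counts, taken as the detection floor, equal 1.80 to 3.41 CPM. A gene was called at a Benjamini-Hochberg adjusted p under 0.05 in edgeR's quasi-likelihood test over 6408 genes. Log2 fold changes are titled CT-26 minus titled control, with standard errors. The background of calls was high. Of all tested genes 42.8% were called, 21.2% higher and 21.6% lower, so that 49.6% of the calls were higher. Without the scaling of library totals that share was 72.8%.

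Promoter sequences are shown for the 2 genes called higher and for the 3 genes called lower by the most that had a promoter entry, to set the ISRE letters beside the direction of each. Each is the 250 bases before the RefSeq start of the gene on build GRCm38.p6, 5′ to 3′ on the strand of the gene, with capitals marking a match to the ISRE core, GAAANNGAAA, or to the same letters on the other strand, TTTCNNTTTC. The windows are chr12:26456453-26456702 (minus strand) for Rsad2, chr12:26468965-26469214 (plus strand) for Cmpk2, chr3:151749911-151750160 (minus strand) for Ifi44, chr3:142620413-142620662 (plus strand) for Gbp2, and chr7:104465194-104465443 (minus strand) for the first of 2 Trim30a entries.
Rsad2: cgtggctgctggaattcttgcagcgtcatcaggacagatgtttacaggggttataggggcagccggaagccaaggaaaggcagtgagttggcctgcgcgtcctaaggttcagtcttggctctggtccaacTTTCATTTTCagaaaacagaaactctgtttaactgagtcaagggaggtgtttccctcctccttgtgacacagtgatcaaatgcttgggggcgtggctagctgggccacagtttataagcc
Cmpk2: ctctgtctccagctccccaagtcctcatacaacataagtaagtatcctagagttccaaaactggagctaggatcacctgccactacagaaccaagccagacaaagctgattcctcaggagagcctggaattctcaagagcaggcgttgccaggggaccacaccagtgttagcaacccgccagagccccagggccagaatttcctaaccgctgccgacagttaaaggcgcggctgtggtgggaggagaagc
Ifi44: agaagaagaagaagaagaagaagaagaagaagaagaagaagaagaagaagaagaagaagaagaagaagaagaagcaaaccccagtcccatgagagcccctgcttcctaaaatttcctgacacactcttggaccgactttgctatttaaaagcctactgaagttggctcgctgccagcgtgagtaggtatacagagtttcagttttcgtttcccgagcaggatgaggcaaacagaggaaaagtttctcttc
Gbp2: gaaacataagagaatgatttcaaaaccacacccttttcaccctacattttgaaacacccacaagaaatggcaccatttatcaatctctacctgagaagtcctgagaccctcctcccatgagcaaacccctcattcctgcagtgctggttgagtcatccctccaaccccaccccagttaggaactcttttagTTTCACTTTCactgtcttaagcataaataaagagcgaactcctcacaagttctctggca
Trim30a: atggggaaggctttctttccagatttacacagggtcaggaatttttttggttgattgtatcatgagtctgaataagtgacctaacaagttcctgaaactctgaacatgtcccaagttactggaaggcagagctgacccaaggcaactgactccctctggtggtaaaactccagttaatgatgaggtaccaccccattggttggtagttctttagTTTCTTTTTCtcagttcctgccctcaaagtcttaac
The core stood once each in the Rsad2, Gbp2 and Trim30a windows. Its first base lay 120 bases before the start of Rsad2, 59 before that of Gbp2 and 36 before that of Trim30a. The windows of Cmpk2 and Ifi44 held no match to these letters. Of the 34 genes, 25 had a promoter entry, and 11 of those (44%) held the core, against 936 of 27025 genes in the whole promoter table (3.46%). Among the entries, 1 of 2 genes called higher, 3 of 8 called lower, 1 of 3 that did not pass and 6 of 12 untested genes held it. Isg15 held 3 overlapping matches, GAAAAGGAAA, GAAACCGAAA and GAAACAGAAA, with first bases 78, 72 and 66 before its start. The palindrome TTCNNNGAA, the letters of the STAT dimer site known as GAS, was in 5 of the 25 (20%), in Gbp7, Samhd1, Eif2ak2, Ifit2 and Oas1a, against 8.13% of all promoters. A match describes letters and not a bound site.

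The antiviral enzymes of nucleotide metabolism held both genes that rose and an abundant gene that fell. Rsad2 encodes viperin, which turns CTP into a nucleotide that stops viral RNA synthesis. Rsad2 had 745, 1178, 1019 and 1140 CPM in titled CT-26 libraries 1 to 4, against 106, 181, 206 and 109 CPM in titled control libraries 1 to 4. The lowest titled CT-26 library thus stood well above the highest titled control library, and the counts behind these levels were 843 to 1599 against 99 to 250. Rsad2 rose 6.79-fold (log2 fold change 2.76 ± 0.25, edgeR adjusted p = 7.96e-10).

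Cmpk2, a mitochondrial kinase of pyrimidine nucleoside monophosphates, is the gene beside Rsad2. Its level was 21.2, 65.6, 50.1 and 56.8 CPM in the titled CT-26 libraries and 13.9, 10.1, 20.4 and 6.62 CPM in the titled control libraries. The sets did not overlap, but titled CT-26 1 (24 counts) came within 0.811 CPM of titled control 3 (19 counts). Cmpk2 rose by a log2 fold change of 1.99 ± 0.35 (edgeR adjusted p = 4.60e-05). Rsad2 had 35.1, 18.0, 20.4 and 20.1 counts for each count of Cmpk2 in the titled CT-26 libraries, against 7.62, 17.9, 10.1 and 16.5 in the titled control libraries.

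On build GRCm39, the build of the count tables, Rsad2 lies at chr12:26492745-26506451 on the minus strand and Cmpk2 at chr12:26519203-26529836 on the plus strand. The genes point away from each other with 12.8 kb between them. Of the 12 other genes annotated within 500 kb, only Rnf144a was tested. Rnf144a, a ubiquitin ligase gene, had 44 counts in the titled CT-26 set and 72 in the titled control set and did not pass (log2 fold change -0.54 ± 0.36, edgeR adjusted p = 0.227).

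Samhd1 encodes a phosphohydrolase that depletes deoxynucleotides and so restricts retroviruses. Its level was 98.1, 112, 103 and 99.9 CPM in the titled CT-26 libraries and 350, 549, 473 and 325 CPM in the titled control libraries. The titled CT-26 values lay close together and far below every titled control value. Samhd1 fell by 2.04 ± 0.22 on the log2 scale (edgeR adjusted p = 1.56e-08).

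**Figure D1:**
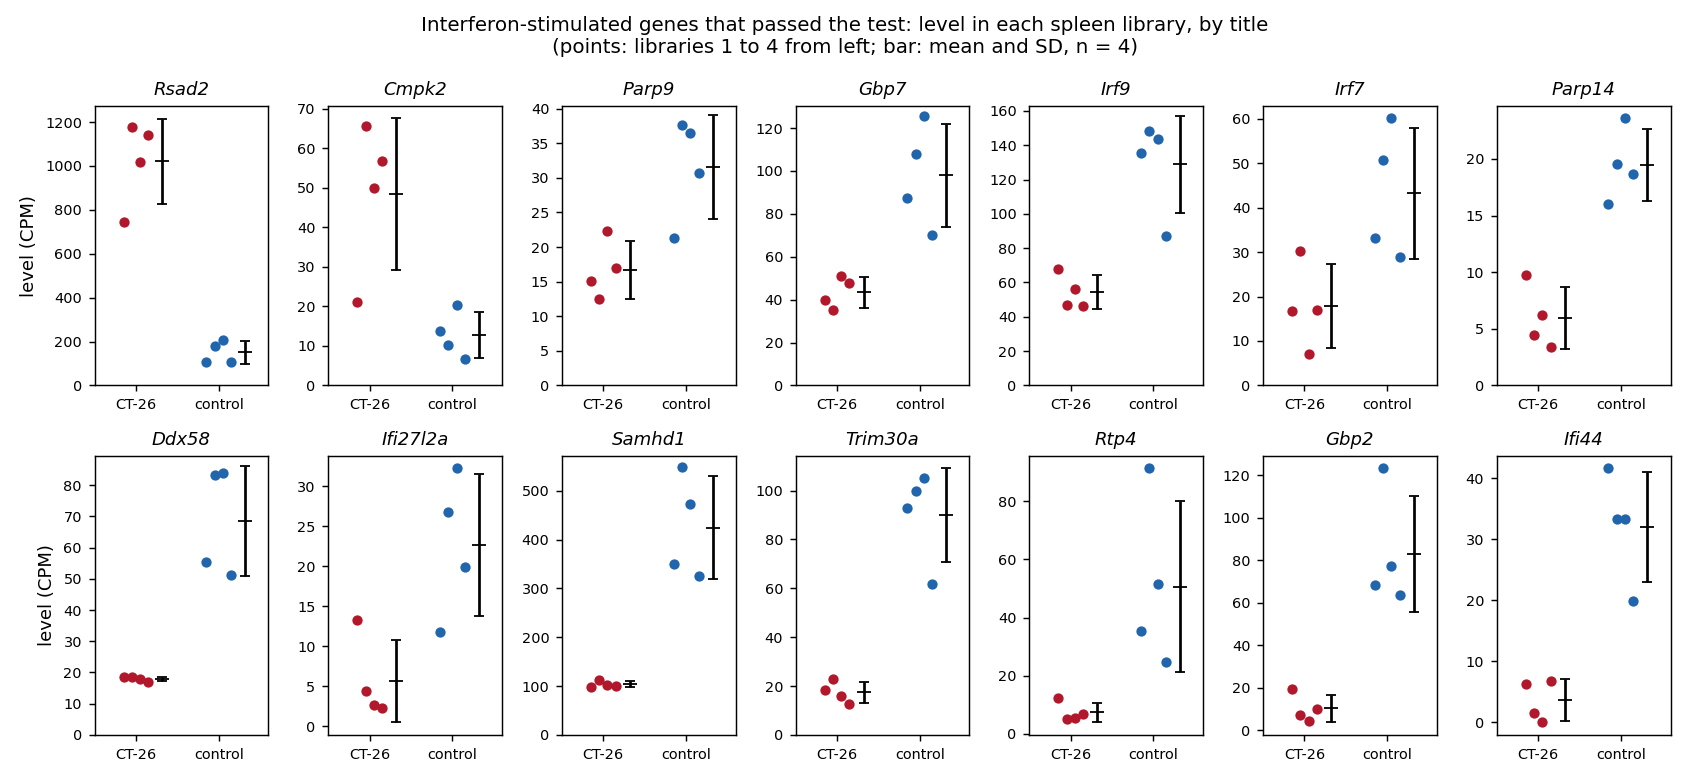
Level in CPM (vertical axes, each panel on its own scale) of the 14 genes that passed the test, with 1 point per library (titled CT-26 left in red, titled control right in blue, libraries 1 to 4 from left) and the mean ± SD of 4 libraries as a bar. Rsad2 and Cmpk2 sit higher in the titled CT-26 libraries and the other 12 lower, with overlap between the sets for Parp9, Irf7 and Ifi27l2a.

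Of the 3 transcription factors, 2 fell. Irf9, the DNA-binding subunit of ISGF3, had 68.1, 47.1, 56.3 and 46.6 CPM in the titled CT-26 libraries, against 136, 149, 144 and 87.2 CPM in the titled control libraries. The sets did not overlap, and Irf9 fell by 1.23 ± 0.23 on the log2 scale (edgeR adjusted p = 6.32e-05). Irf7, which amplifies transcription of the interferon genes themselves, had 16.8, 30.2, 7.15 and 17 CPM in the titled CT-26 libraries and 33.1, 50.7, 60.2 and 28.9 CPM in the titled control libraries. Here titled CT-26 2 reached past titled control 4, so the sets overlapped, and the log2 fold change was -1.24 ± 0.33 (edgeR adjusted p = 0.00358). Stat2, the ISGF3 subunit that carries the transactivation domain, was low throughout, with 3 to 16 counts in the titled CT-26 libraries and 9 to 23 in the titled control libraries. It did not pass (log2 fold change -0.33 ± 0.42, edgeR adjusted p = 0.557).

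Of the 2 tested cytoplasmic RNA sensors, Ddx58 fell and Ifih1 did not pass. Ddx58, also called RIG-I, recognises viral RNA ends and signals through Mavs. Its level was 18.6, 18.4, 17.9 and 17 CPM in the titled CT-26 libraries and 55.5, 83.4, 83.8 and 51.1 CPM in the titled control libraries. No other tested gene of the list varied so little among the titled CT-26 libraries, with a coefficient of variation of 3.86%. These levels rest on 21, 25, 20 and 15 counts, where counting error alone would give a wider spread. The closeness is therefore not read as a tightly held level. Ddx58 fell by 1.92 ± 0.26 on the log2 scale (edgeR adjusted p = 9.55e-07). Ifih1, also called MDA5, senses long double-stranded RNA. It had 13.3, 18.4, 20.6 and 13.6 CPM in the titled CT-26 libraries and 10.7, 13.8, 11.8 and 10.8 CPM in the titled control libraries, overlapped narrowly and did not pass (log2 fold change 0.49 ± 0.33, edgeR adjusted p = 0.249). The difference between the changes of Ddx58 and Ifih1 was not itself tested.

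Both tested GTPases fell. Gbp2, a guanylate-binding protein of the interferon response against intracellular pathogens, lies at chr3:142326363-142343769 on the plus strand of GRCm39. It had 19.5, 7.37, 4.47 and 10.2 CPM in the titled CT-26 libraries, against 68.3, 123, 77.3 and 63.8 CPM in the titled control libraries. Titled CT-26 1 was the highest of its set and titled control 2 of the other, with a wide gap between the sets. Gbp2 fell 8.01-fold, with a standard error of 0.34 on the log2 scale (edgeR adjusted p = 4.98e-08). Gbp7, a paralogue 70.5 kb away, had 39.8, 35.4, 51.0 and 47.7 CPM in the titled CT-26 libraries and 87.6, 108, 126 and 70.4 CPM in the titled control libraries. The sets did not overlap, and Gbp7 fell by 1.17 ± 0.23 on the log2 scale (edgeR adjusted p = 1.71e-04). Of the exon bases of Gbp7, 11.3% are shared with another annotated gene, and reads there were not assigned to either.

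Among the ADP-ribosyltransferases and their ubiquitin ligase partner, both transferases fell and the ligase did not pass. Parp14 had 9.73, 4.42, 6.26 and 3.41 CPM in the titled CT-26 libraries and 16.0, 19.6, 23.6 and 18.6 CPM in the titled control libraries. The sets did not overlap, although the titled CT-26 levels rest on 3 to 11 counts (log2 fold change -1.68 ± 0.38, edgeR adjusted p = 6.93e-04). Parp9 had 15, 12.5, 22.4 and 17 CPM in the titled CT-26 libraries and 21.4, 37.7, 36.5 and 30.7 CPM in the titled control libraries. Titled CT-26 3 passed titled control 1, and the log2 fold change was -0.93 ± 0.29 (edgeR adjusted p = 0.0116). Without the scaling of library totals the Parp9 call was lost, at -0.60 and an edgeR adjusted p of 0.168. Dtx3l, the ligase that works with Parp9, had 27.4, 15.5, 9.83 and 26.1 CPM in the titled CT-26 libraries and 35.2, 35.5, 26.9 and 30.1 CPM in the titled control libraries. It did not pass (log2 fold change -0.71 ± 0.30, edgeR adjusted p = 0.0578), and its exons overlap those of Parp9 on the other strand over 458 bases. The counting used no strand, so reads there were left out of both genes.

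The remaining tested genes, known mainly as induced proteins, all fell. Ifi44 lies at chr3:151436559-151455597 on the minus strand of GRCm39 and encodes a cytoplasmic protein with antiviral activity. It had 6.19, 1.47, 0 and 6.81 CPM in the titled CT-26 libraries, against 41.6, 33.3, 33.3 and 19.8 CPM in the titled control libraries. The titled CT-26 levels rest on 7, 2, 0 and 6 counts, and Ifi44 had the lowest log2 fold change of the tested list, -3.18 ± 0.48 (edgeR adjusted p = 5.18e-06).

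Rtp4, a chaperone of membrane receptors that interferon induces strongly, had 12.4, 5.16, 5.36 and 6.81 CPM in the titled CT-26 libraries and 35.2, 91.3, 51.6 and 24.7 CPM in the titled control libraries. Titled control 2 was far above the rest of its set, while the sets did not overlap (log2 fold change -2.76 ± 0.40, edgeR adjusted p = 5.71e-06). Of its exon bases 13.9% are shared with another gene. Trim30a, a ubiquitin ligase of the TRIM family that restrains NF-kappaB signalling in mice, had 18.6, 22.8, 16.1 and 12.5 CPM in the titled CT-26 libraries and 92.9, 100, 105 and 61.9 CPM in the titled control libraries. Every titled control value was more than 2 times any titled CT-26 value, and Trim30a fell by 2.33 ± 0.26 on the log2 scale (edgeR adjusted p = 3.59e-08). Ifi27l2a, a short mitochondrial protein gene, had 13.3, 4.42, 2.68 and 2.27 CPM in the titled CT-26 libraries and 11.7, 26.8, 32.2 and 19.8 CPM in the titled control libraries. Titled CT-26 1 stood above titled control 1, the only overlap (log2 fold change -1.96 ± 0.45, edgeR adjusted p = 7.54e-04), and without titled CT-26 1 the log2 fold change was -2.74.

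**Figure D2:**
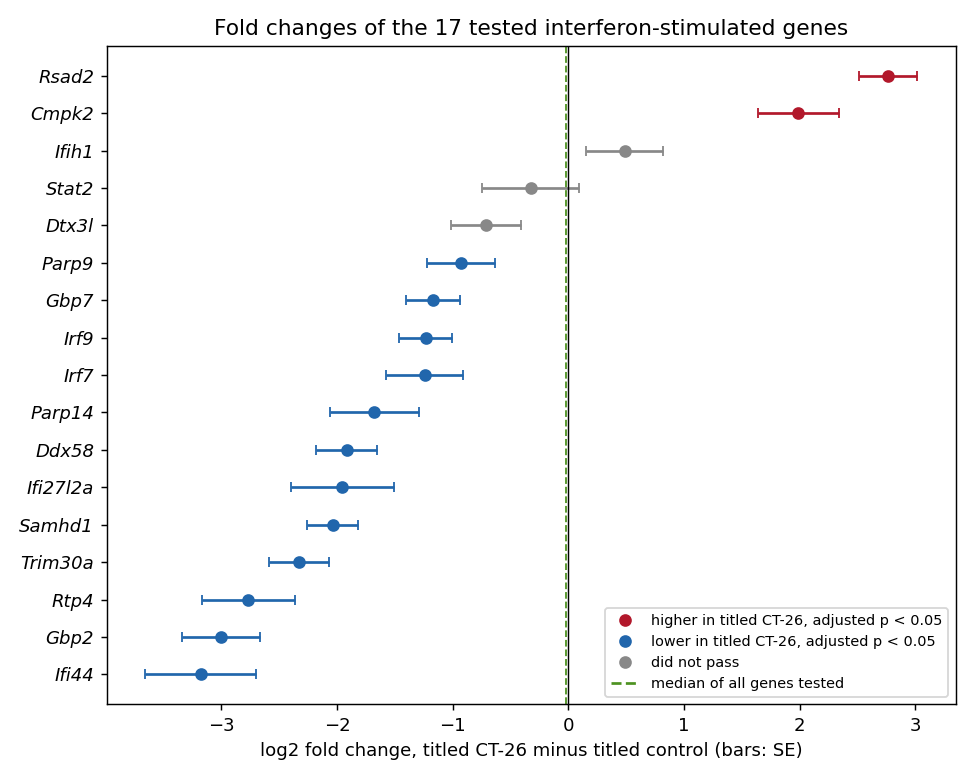
Log2 fold change, titled CT-26 minus titled control, of the 17 tested genes (points, with bars of 1 SE), ordered from highest to lowest and coloured by call. The genes run from Rsad2 at 2.76 to Ifi44 at -3.18, and the dashed line marks the median of all tested genes, -0.02.

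Over the 17 tested genes, the median log2 fold change was -1.24, against -0.02 over all 6408 genes. Among the 14 called genes, 11 of the lower and both of the higher differed by at least 2-fold. The sets did not overlap for 11 of the 17 genes, 2 higher and 9 lower in the titled CT-26 libraries, where 38.5% of all tested genes showed such a gap, 19.7% upward and 18.9% downward. These gaps are in CPM on the scaled totals, with scaling factors from 0.654 (titled control 1) to 1.23 (titled CT-26 4). On unscaled totals the sets of Irf9, Gbp7 and Parp14 overlap, and the share over all tested genes was not counted there. The 12 genes called lower are 70.6% of the tested list, where 21.6% of all tested genes were lower. The 2 called higher are 11.8% of it, where 21.2% of all tested genes were higher. A gene could be tested only with enough reads in at least 4 of the 8 libraries, of either set. Genes low in 1 set could thus pass through the other, and these shares describe the 17 and not all 34. The list was also chosen with earlier results of these data known, so its distance from the background was not tested.

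Lane number, read from the names of the deposited count tables, was 1, 2 or 3 for the titled CT-26 libraries and 1, 2 or 4 for the titled control libraries. Within lane 1 (2 titled CT-26 libraries, 1 titled control library) and within lane 2 (1 and 2), all 14 called genes kept their direction. For the 11 whose sets did not overlap this was fixed in advance, since any choice of libraries keeps it. The genes were also called on these same libraries, so the count is no separate test of lane. Rsad2 averaged 1159 against 206 CPM in lane 1 and was at 745 against 107 CPM in lane 2. The smallest of these gaps was that of Ifi27l2a in lane 2, at 13.3 CPM in the titled CT-26 library and 15.8 CPM in the 2 titled control libraries. With lane as a factor, 2 genes were again called higher and 12 lower, while the log2 fold change of Cmpk2 was 1.37, against 1.99 without it. Lane 3 held only titled CT-26 3 and lane 4 only titled control 2. The difference in that fit therefore rests on the libraries of lanes 1 and 2.

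The other 17 genes had too few reads for the test and are given by counts. Their mean CPM was lower in the titled CT-26 set for 12 and higher for 5. The sets did not overlap for 6, all lower in the titled CT-26 libraries, where 6.34% of the 12358 genes outside the filter showed such a gap downward and 2.19% upward. Those genes were not matched to the list for depth. Some of the 6 gaps were narrow. Usp18 reached 3.54 CPM in the titled CT-26 set, against at least 3.61 CPM in the titled control set. Oasl1 reached 7.15 CPM, against at least 7.25 CPM. On unscaled totals the sets of Usp18, Oasl1, Ifit1 and Ifi35 overlap, and those of Ifit3 and Mx1 do not.

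Among the sequestering and tagging proteins of the classical response, the IFIT genes bind foreign RNA and block its translation. Ifit1 had 2, 8, 7 and 5 counts in the titled CT-26 libraries and 13, 29, 14 and 12 in the titled control libraries. Ifit3 had 2, 1, 0 and 0 counts in the titled CT-26 libraries, against 11, 17, 13 and 10 in the titled control libraries. Neither gene overlapped between the sets, whereas Ifit2, with 1 to 3 counts in the titled CT-26 libraries and 1 to 4 in the titled control libraries, did.

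Isg15, the ubiquitin-like protein joined to other proteins during the response, and Usp18, the protease that removes it and also dampens the interferon receptor, had opposite means. Isg15 had 21, 19, 11 and 5 counts in the titled CT-26 libraries and 6, 11, 7 and 6 in the titled control libraries, or 12.0 ± 5.53 against 6.38 ± 1.96 CPM (SD, n = 4 each). The sets overlapped through titled CT-26 4. Usp18 had 4, 0, 0 and 1 counts in the titled CT-26 libraries and 14, 26, 11 and 6 in the titled control libraries, with no overlap.

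Mx1 encodes a GTPase that traps viral nucleocapsids and is defective in most inbred mouse strains. It had 0 counts in all 4 titled CT-26 libraries and 3, 11, 1 and 1 in the titled control libraries. Set against 3 counts over the whole titled CT-26 set, its level was at least 4.87-fold lower there. With 16 counts in all, this is a small base.

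The oligoadenylate synthetase family, which activates RNase L, was near the detection floor. Oasl1, known in mice to hold back translation of Irf7, had 4, 3, 8 and 2 counts in the titled CT-26 libraries and 8, 10, 9 and 16 in the titled control libraries, without overlap in CPM. Oasl2 had 0, 5, 2 and 3 counts in the titled CT-26 libraries and 6, 16, 3 and 16 in the titled control libraries. Oas3 had 4 to 9 counts in the titled CT-26 libraries and 2 to 16 in the titled control libraries. Oas1a and Oas2 were all but unread, at 3 and 1 counts over the titled CT-26 set and 0 and 2 over the titled control set.

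Of the untested sensors, Eif2ak2, the kinase PKR that halts translation on double-stranded RNA, had 6, 15, 12 and 7 counts in the titled CT-26 libraries and 2, 11, 7 and 4 in the titled control libraries. Dhx58, also called LGP2, a partner of RIG-I and MDA5, had 2 to 4 counts in the titled CT-26 libraries and 0 to 3 in the titled control libraries. Zbp1, which binds nucleic acid in the Z form, had 1 to 11 counts in the titled CT-26 libraries and 4 to 18 in the titled control libraries. These 3 overlapped between the sets. Ifi35 had 6, 9, 5 and 2 counts in the titled CT-26 libraries and 15, 19, 10 and 13 in the titled control libraries, without overlap, and 16.8% of its exon bases are shared with another gene. Xaf1, a gene linked to cell death, had 1 to 6 counts in the titled CT-26 libraries and 4 to 12 in the titled control libraries. Cxcl10, a chemokine that draws activated T cells, had 0 to 2 counts in the titled CT-26 libraries and 1 to 4 in the titled control libraries.

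When the fit was repeated on every gene with a count (18766 genes, of which 8.87% were called higher and 9.17% lower), 5 of these 17 genes were called lower and 0 higher. They were Ifit3 (edgeR adjusted p = 8.03e-06), Usp18 (1.40e-05), Mx1 (0.00606), Ifit1 (0.0151) and Oasl2 (0.0362). In that fit Isg15 had a log2 fold change of 1.04 ± 0.46 and did not pass (edgeR adjusted p = 0.103). Isg15 was called higher in the filtered fit without titled CT-26 4 alone among the libraries left out.

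**Figure D3:**
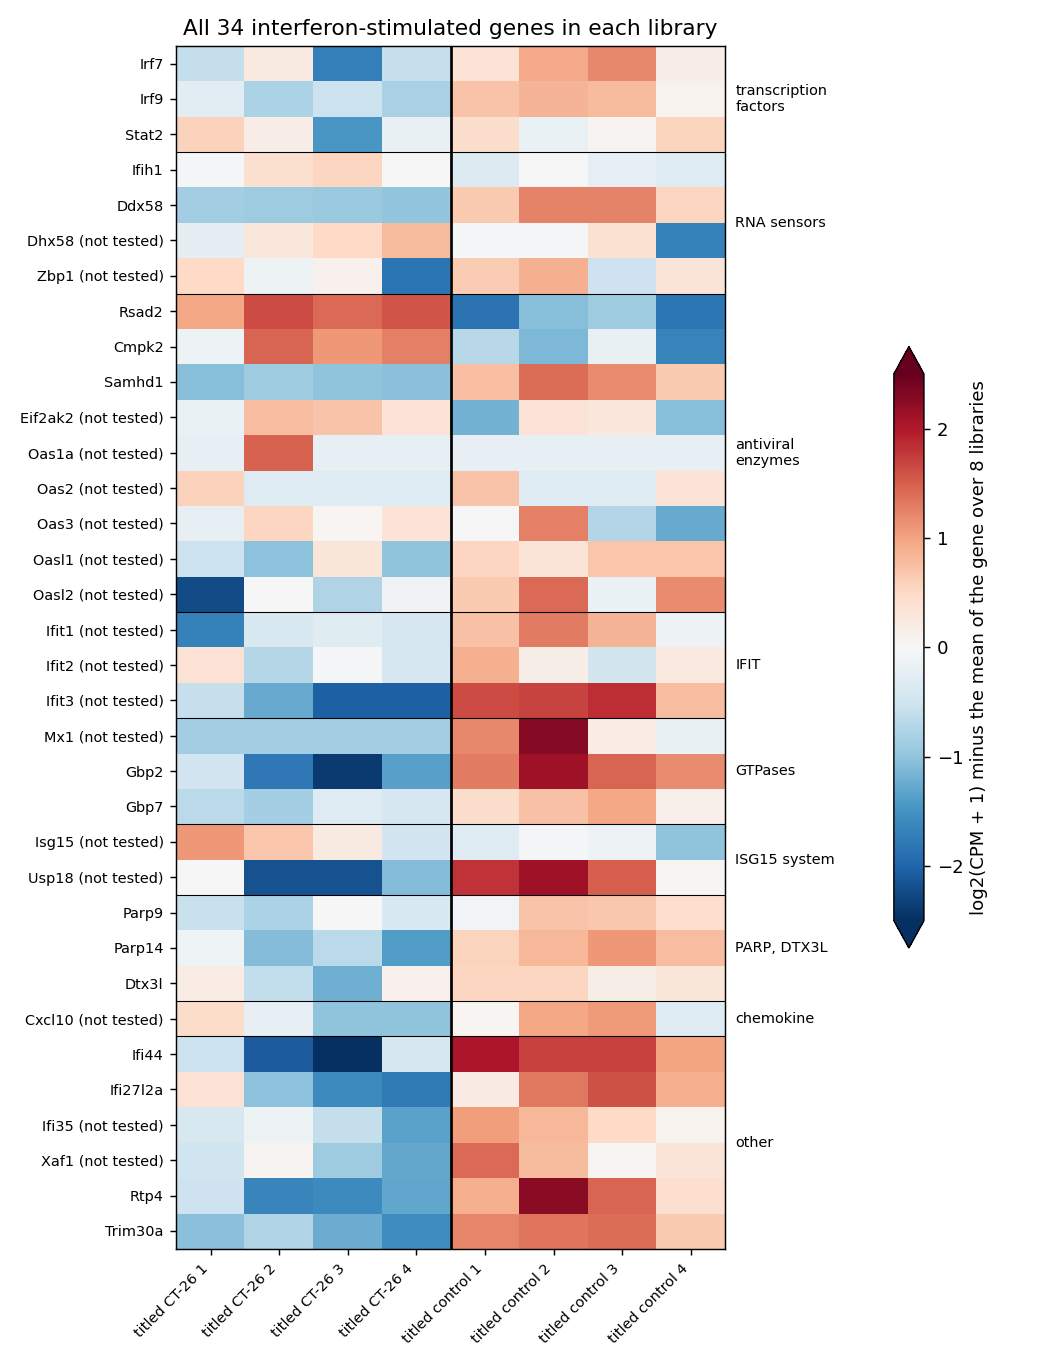
Each of the 34 genes (rows, grouped by role) in each library (columns, titled CT-26 left of titled control), coloured by log2(CPM + 1) minus the mean of that gene over the 8 libraries. Rsad2 and Cmpk2 are red on the left while most of the rows below and above them are blue there, and untested genes are marked as such.

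In the sum of the list the opposite differences largely cancelled. Summed over the 34 genes, the level was 1476 ± 190 CPM in the titled CT-26 set and 1419 ± 334 CPM in the titled control set (SD, n = 4 each), with ranges of 1220 to 1657 and 1041 to 1769 CPM. Without Rsad2, the other 33 genes summed to 455 ± 24.7 CPM in the titled CT-26 set and 1269 ± 290 CPM in the titled control set, with ranges of 434 to 479 and 932 to 1588 CPM that did not overlap. Rsad2 supplied 61.1% to 72.4% of the counts of the list in the titled CT-26 libraries, against 8.48% to 12.7% in the titled control libraries. These sums are descriptions and were not tested.

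**Figure D4:**
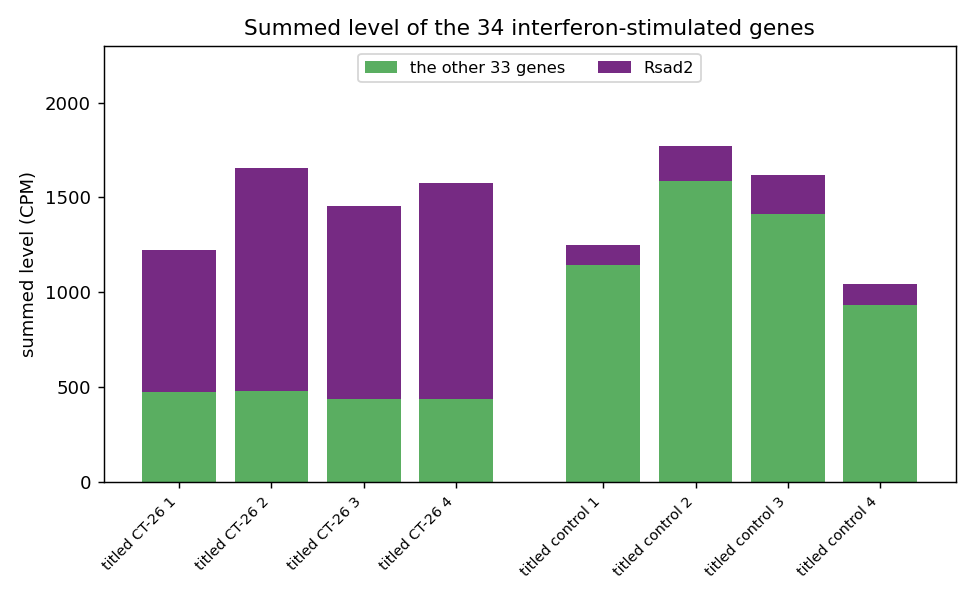
Summed CPM (vertical axis, from 0) of the 34 genes in each library, titled CT-26 left and titled control right, split into Rsad2 (purple, on top) and the other 33 genes (green). Total heights overlap between the sets, while the green part is 434 to 479 CPM in the titled CT-26 libraries and 932 to 1588 CPM in the titled control libraries.

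Per kilobase of exon, the order of the list differed between the sets. In the titled CT-26 libraries Rsad2 led with 235 ± 45.1 CPM per kb, followed by Isg15 with 17.1 ± 7.87, Ifi27l2a with 12.2 ± 11.1, Cmpk2 with 11.6 and Samhd1 with 11.3 CPM per kb. The places after Rsad2 lay within each other's spread. In the titled control libraries Ifi27l2a, at 48.9 ± 19.1 CPM per kb, Samhd1, at 46.4 ± 11.5, Rsad2, at 34.7 ± 11.8, and Gbp2, at 33.1 ± 10.8, came first and were not separated by their spread. Cmpk2 was in place 4 of 34 in the titled CT-26 set and in place 20 in the titled control set.

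Libraries of the same set also differed among themselves. Over the tested genes the coefficient of variation had a median of 39.7% in the titled CT-26 set (3.86% for Ddx58 to 93.7% for Ifi44) and of 24.9% in the titled control set (12.1% to 57.7%). Counting error adds to it where counts are few, as for Ifi44 with 7, 2, 0 and 6 counts in the titled CT-26 set. Most tested genes were lower in that set, so the medians do not compare the spread of the libraries alone. Titled control 4 was the lowest of its set for 10 of the 17 genes, and titled controls 2 and 3 were the highest for 7 and 8. Among the titled CT-26 libraries, number 1 was the highest for 8 genes, all with a log2 fold change below 0.

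Upstream of the list, transcripts of the type I interferons themselves were not detected at this depth. All 18 type I interferon genes in the tables, Ifnb1 and the Ifna genes among them, had 0 counts in all 8 libraries, which allows levels of up to 1.80 to 3.41 CPM in a library. Ifng, the type II interferon gene, had 0 counts in the titled CT-26 set and 2 in the titled control set.

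Of the receptor chains for type I interferon, Ifnar2 rose and Ifnar1 did not pass. Ifnar2 had 352, 442, 252 and 393 CPM in the titled CT-26 libraries, against 75.8, 71.0, 56.9 and 67.4 CPM in the titled control libraries. The sets were far apart, and Ifnar2 rose by a log2 fold change of 2.41 ± 0.22 (edgeR adjusted p = 1.10e-09). Ifnar1, its partner chain, had 17.7, 9.58, 17.9 and 25.0 CPM in the titled CT-26 libraries and 19.2, 26.1, 32.2 and 12.0 CPM in the titled control libraries and did not pass (log2 fold change -0.36 ± 0.35, edgeR adjusted p = 0.431). The difference between the changes of the 2 chains was not tested. Of the 5 tested receptor genes, Ifnar2 was thus the only one called, with Ifngr1 of the interferon gamma receptor at 0.82 and its partner Ifngr2 at -0.49, and Il10rb, the chain shared with the interferon lambda receptor, at -0.73. Among 16 alternative settings, Ifngr1 and Il10rb passed in 3 each and Ifngr2 in 1.

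Of the 3 Janus kinases listed, 2 were tested and both were called, in opposite directions. Jak1 fell by 0.54 ± 0.21, with overlapping sets (edgeR adjusted p = 0.0428), and Jak2, the kinase of the interferon gamma receptor, rose by 0.82 ± 0.21 (edgeR adjusted p = 0.00265). The Jak1 call was lost in 9 of 16 alternatives. These were the fits without titled CT-26 2, 3 or 4, without titled control 3 or 4, without a filter, with the replicate block (edgeR adjusted p = 0.0502), with lane as a factor (log2 fold change -0.47) and without the scaling of library totals (-0.18, edgeR adjusted p = 0.626). The Jak2 call was lost with lane as a factor.

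Of 17 tested genes that sense nucleic acid or induce interferon, 2 were higher, 5 lower and 10 not called, with a median log2 fold change of 0.04. The 7 called in all lie near the share called over all tested genes, 42.8%. Irf3, the factor that starts interferon transcription, averaged 12.5 ± 2.87 CPM in the titled CT-26 set and 41.2 ± 10.7 CPM in the titled control set (log2 fold change -1.68). Sting1, the adaptor of DNA sensing, averaged 21.2 ± 5.35 and 66.0 ± 19.2 CPM in the same order (-1.63). Unc93b1, which escorts endosomal Toll-like receptors, and Irf8, a factor of myeloid and dendritic development, were also lower, at -1.13 and -1.14. Over the alternatives, 0 to 5 genes of this list were called higher and 4 to 6 lower. Of 8 tested negative regulators, 2 were higher (1 to 3 over the alternatives), 2 lower (2 to 3) and 4 not called. Those counts, too, lie near the shares over all tested genes, 21.2% higher and 21.6% lower. The phosphatase Ptpn6 and the repressor Irf2 were lower, at -2.09 and -1.82, while Socs3, an inhibitor of cytokine receptor kinases, averaged 14.3 ± 3.91 CPM in the titled CT-26 set and 3.77 ± 1.09 CPM in the titled control set (1.91). Usp15, a deubiquitinase, was higher by 0.54, a call lost in 10 of 16 alternatives. These were the fits without titled CT-26 2, 3 or 4 or titled control 2, 3 or 4, with DESeq2, with the replicate block (edgeR adjusted p = 0.0518), with lane as a factor (log2 fold change 0.42) and with the filter of at least 10 CPM.

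A further list of 62 interferon-stimulated genes outside the 34 gave 35 tested genes. Of these, 3 were higher, 19 lower and 13 not called, where 21.2% of all tested genes were higher and 21.6% lower. The median log2 fold change of the 35 was -0.86. Over the alternatives, 2 to 4 were called higher and 14 to 27 lower, the number tested varying with the filter. The 4 of smallest p were all lower. Ms4a6b and Ms4a4b, membrane proteins of the MS4A family, had log2 fold changes of -3.23 and -3.08. Slfn1, of the Schlafen family, was at -2.37 and Sp100, a nuclear body protein, at -1.77. The 3 higher genes were named after their values were seen. They were Ifitm6 (192 ± 106 CPM in the titled CT-26 set and 18.1 ± 7.88 CPM in the titled control set), Ifitm2 (395 ± 49.9 and 189 ± 29.5 CPM) and Isg20 (412 ± 144 and 215 ± 44.2 CPM), with log2 fold changes of 3.38, 1.07 and 0.94. The Isg20 call was lost with lane as a factor.

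Of 13 tested GTPases and regulators known for induction by interferon gamma, 0 were higher, 11 lower (8 to 11 over the alternatives) and 2 not called. Among all tested genes 21.2% were higher and 21.6% lower. The median log2 fold change of the 13 was -1.78. Iigp1, a GTPase that attacks the vacuoles of intracellular parasites, had 3.54, 1.47, 2.68 and 1.14 CPM in the titled CT-26 libraries and 29.9, 37.0, 36.5 and 14.4 CPM in the titled control libraries, a log2 fold change of -3.64 ± 0.46 (edgeR adjusted p = 2.09e-07). Its relatives Gbp4, Tgtp2 and Ifi47 were at -2.47, -2.19 and -1.79. These families have close paralogues, and reads matching several copies were not counted.

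**Figure D5:**
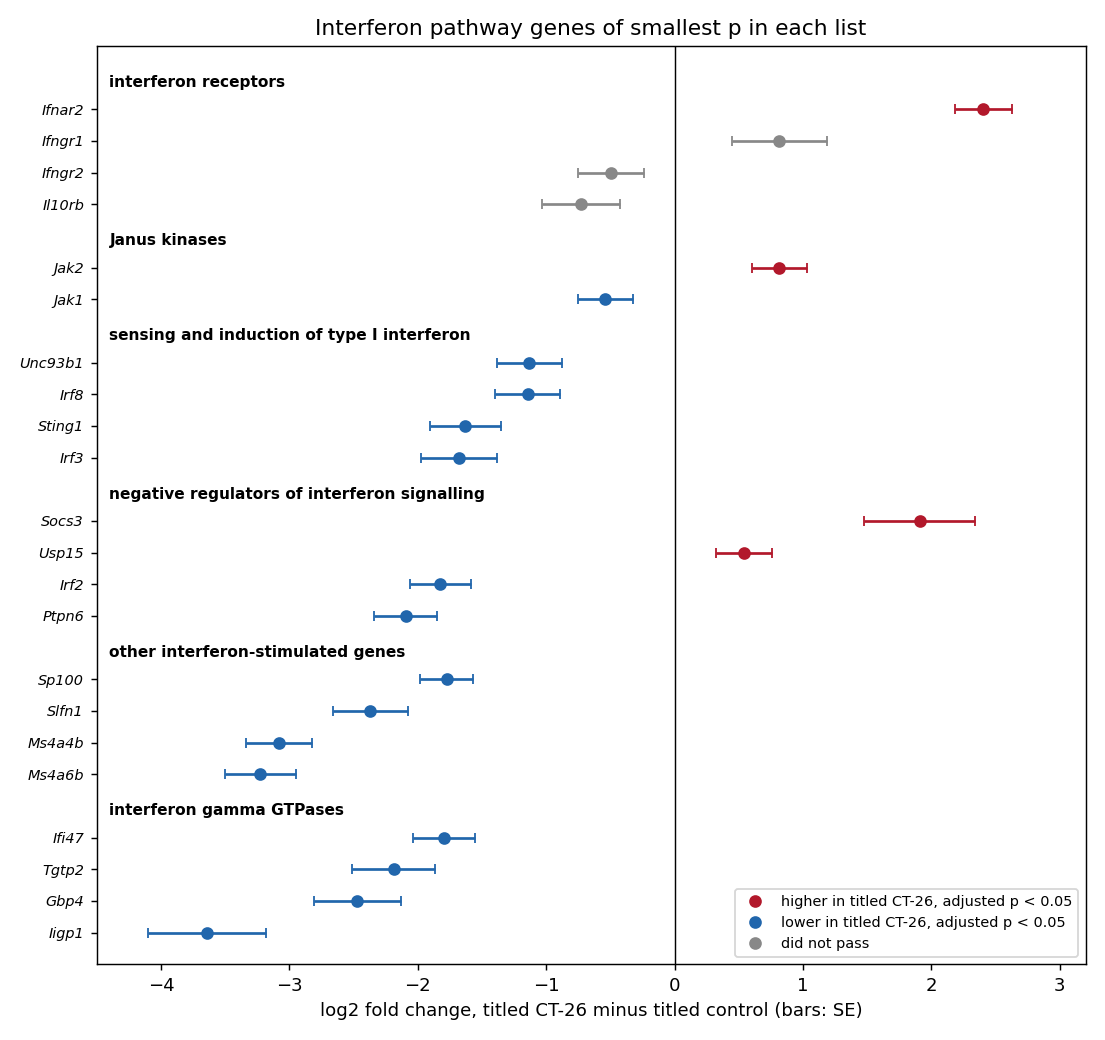
Log2 fold change, titled CT-26 minus titled control, with bars of 1 SE, for up to 4 genes of smallest p in each pathway list (horizontal axis in log2 units, genes down the page by list). Ifnar2 lies at 2.41 and Socs3 at 1.91, while all 8 genes shown of the other interferon-stimulated genes and the interferon gamma GTPases lie below 0, down to Iigp1 at -3.64.

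Cell type markers moved with the sets in the same fit, in which 21.2% of all tested genes were called higher and 21.6% lower. Neutrophil markers were higher in the titled CT-26 set for 11 of 14 tested genes, with a summed level of 3982 to 9579 CPM against 557 to 1781 CPM. All 10 tested erythroid precursor markers were higher, at 3100 to 5862 against 843 to 1024 CPM. B cell markers were lower for 10 of 11, at 355 to 730 CPM in the titled CT-26 libraries against 2049 to 3217 CPM in the titled control libraries. All 12 T cell markers were lower, at 348 to 825 against 1577 to 2310 CPM, as were all 4 tested NK cell markers, at 22.8 to 50.4 against 177 to 391 CPM. Plasmacytoid dendritic cell markers were lower for 3 of 5, at 64.8 to 165 against 167 to 304 CPM, and the dendritic cell marker Itgax was the lower of the 2 tested in its list. Monocyte and macrophage markers were lower for 5 and higher for 1 of 8, at 538 to 784 against 1073 to 1773 CPM. Red pulp macrophage markers were lower for 6 of 11, at 1262 to 1638 against 2391 to 2785 CPM. Of the 11 erythroid precursor genes listed, 1 was not matched in the tables, and every other marker of these lists had a count in at least 1 library. Of the 7 epithelial markers, which CT-26 cells could carry, 0 could be tested. Their sum was 0 to 7.96 CPM in the titled CT-26 libraries and 0.725 to 3.22 CPM in the titled control libraries, and Krt19 and Cdx2 were at 0 in all 8. The part of these cell type differences in the levels of the interferon-stimulated genes was not tested.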

How the data were processed

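RNA-seq was deposited for 8 of the series' 24 spleen libraries, and the other 16, of immune receptor sequencing, were not used here. The deposited values are raw counts of read pairs per gene, made by the authors with featureCounts 2.0.1 on GENCODE M29 (GRCm39), without strand, per the file headers. Trimmomatic 0.39 and STAR 2.7.10a are given in the submitters' processing notes. The headers name no option for reads that match several places or genes, which featureCounts leaves out by default. The treatment entries contradict the titles, and libraries were grouped by title.

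Counts were filtered with filterByExpr, scaled by TMM (a trimmed mean of ratios between libraries) and tested with edgeR 4.0.16 (R 4.3.3), by the robust quasi-likelihood test with Benjamini-Hochberg adjustment over 6408 genes. The standard error is the log2 fold change divided by the square root of F. CPM used the scaled totals, and 3 counts served as the floor, for counting error only. The procedure was tested on simulated data, in which few genes differed, about equally in both directions. That simulation did not test the scaling of library totals where as many genes are called as here. No libraries of a set agreed within sampling noise (lowest chi-square per degree of freedom 3.70), so each counted as 1 replicate.

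The 34 genes and all lists were chosen with earlier results of these data known. Genes were named by rule: each of the 34, with levels per library for those called and for the tested genes that did not pass, counts for the rest, and up to 4 genes of smallest p in each pathway list. A protein sequence named in that rule and 1 pathway gene are not reported here. Alternatives were DESeq2 1.42.0, other filters and scalings, a fit without the robust option, lane as a factor, the replicate block, and leaving out each library. Promoter sequences are from RefSeq (GRCm38.p6), and none of their coordinates was set against those of GRCm39.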

Additional observations from a re-analysis of the deposited data

How the results depend on the processing

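Over 16 alternatives the genes of the list called higher numbered 2 to 3 and those called lower 11 to 17, against 2 and 12. The number of them tested ran from 16 to 34, against 17, so part of this range comes from genes that entered or left the test. All 14 calls held in every alternative, except that Parp9 was lost without TMM (log2 fold change -0.60). Dtx3l was called lower with the replicate block and without titled CT-26 1 or 4. Of 271 values of single genes of the list under an alternative, 267 kept their side of the threshold and their direction where called, 3 gained a call, 1 lost it and 0 reversed. Stat2 had no value under the filter of at least 10 CPM in 4 libraries, and its log2 fold change, never called, ran from -0.63 to 0.08. Among all genes, library totals without TMM shifted the median log2 fold change by 0.37 and gave 725 lower calls, against 1381, and 1936 higher ones; the fit without a filter shifted it by -0.22. Leaving out 1 library gave 1236 to 1486 genes higher, 1251 to 1462 lower, 2 to 3 of the list higher and 12 to 16 lower. In those fits 19 to 22 genes of the list were tested. The equal replicate numbers did not pair the libraries, as deviations of same-numbered libraries correlated at -0.0914 to 0.0764 and 1 of 4 titled CT-26 and 1 of 4 titled control libraries correlated best with their own number. With the replicate block, 1340 genes were higher and 1328 lower, and 2 and 13 of the list. Of 26 pathway genes followed, 19 kept their call in all 16 alternatives. Depth limits the 17 untested genes most, since 3 counts equal up to 3.41 CPM.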
